A study of Mus musculus with 6 samples.

Results

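The genes described here encode the enzymes of lipolysis and the proteins that regulate them most directly. They were taken as a fixed list of names: Pnpla2, Lipe, Mgll, Abhd5, G0s2, Aqp7, Abhd6 and Hilpda. All 8 were among the 16627 genes counted, and all 8 passed the filter on low counts that left 16366 genes for the test. RNA was sequenced from inguinal white adipose tissue of mice held for 6 hours at 4 °C. The Celf1 AKO group (3 libraries, titled AKO) came from mice whose adipocytes were made to lack Celf1, which encodes a protein that binds RNA and acts in splicing and mRNA decay. The Flox control group (3 libraries) came from fl/fl littermates, and both groups were exposed to the same cold. The series asked what Celf1 does in the beiging of this depot. The sources used here do not give the driver of the deletion, or the age and sex of the mice. The labels do not say that each library is a separate animal, so p-values measure only how these libraries spread, which may be technical.

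Lipolysis breaks the triacylglycerol of the adipocyte's lipid droplet into fatty acids and glycerol. Pnpla2 (adipose triglyceride lipase, ATGL) removes the first fatty acid, Lipe (hormone-sensitive lipase) acts mainly on the diacylglycerol that is left, and Mgll (monoacylglycerol lipase) releases the last one. Abhd5 (CGI-58) is the coactivator of ATGL, whereas G0s2 and Hilpda bind ATGL and inhibit it. Aqp7 is the channel by which glycerol leaves the cell, and Abhd6 is a membrane hydrolase of monoacylglycerols. In the cold, noradrenaline acting through cAMP and protein kinase A switches the pathway on, and the fatty acids released fuel heat production in beige and brown adipocytes.

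The labels were checked on Celf1 and on markers. Celf1 stood at 52.5, 49.8 and 63.0 CPM (each library's counts scaled to a common total, with TMM factors) in Celf1 AKO and at 126, 114 and 144 CPM in Flox control. The groups did not overlap, and the log2 fold change was -1.21. For Celf1, edgeR gave an adjusted p of 0.122 with all libraries and 0.0174 without Celf1 AKO replicate 3. DESeq2 gave an adjusted p of 1.21e-09 with all libraries. Library totals ran from 54835348 to 64979443 counts, so that 1 CPM rested on 54.9 to 67.8 counts. All 10 mature adipocyte markers were tested, with a summed level of 45809 to 56943 CPM in Celf1 AKO, against 50814 to 57768 CPM in Flox control. Lpl, Fabp4 and Cfd make up most of that sum, and 3 of the 10 were positive and 7 negative (median log2 fold change -0.05). Adiponectin (Adipoq) was at 2591, 2790.2 and 2731 CPM in Celf1 AKO and at 2566, 2444 and 2443 CPM in Flox control, a log2 fold change of 0.12. Leptin (Lep) was at 41.1, 165 and 101 CPM in Celf1 AKO and at 142, 568 and 297 CPM in Flox control, a log2 fold change of -1.71 (edgeR adjusted p = 0.324). Celf1 AKO replicate 3 stood apart from its group: across genes, which are not independent replicates, the correlation of its log2 CPM was 0.983 to 0.986 with Flox control libraries and 0.976 to 0.978 with the other 2 knockout libraries. Results of the 8 genes that rest on it, and calls gained without it, are given with and without it.

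None of the 8 genes passed the test over all genes, in either direction. The largest differences lay in the 2 inhibitors of ATGL and ran in opposite directions. G0s2 averaged 136 ± 65.4 CPM in Celf1 AKO, against 254 ± 81.0 CPM in Flox control (mean ± SD of 3 libraries each). Hilpda averaged 13.7 ± 0.822 CPM in Celf1 AKO, against 7.36 ± 2.88 CPM in Flox control (mean ± SD of 3 libraries each). The 3 lipases of the pathway, Pnpla2, Lipe and Mgll, overlapped between the groups and had fitted log2 fold changes between -0.17 and 0.15. By edgeR's quasi-likelihood test, 0 of the 8 had an adjusted p under 0.05, in a comparison that called 0.0122% of tested genes higher and 0% lower. At an unadjusted p under 0.05, 1 of the 8 was higher (Hilpda) and 1 lower (G0s2), against a background of 6.75% of all genes higher and 6.17% lower. The median log2 fold change of the 8 was -0.14, beside -0.02 over all genes tested, with 3 values positive and 5 negative.

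**Figure D1:**
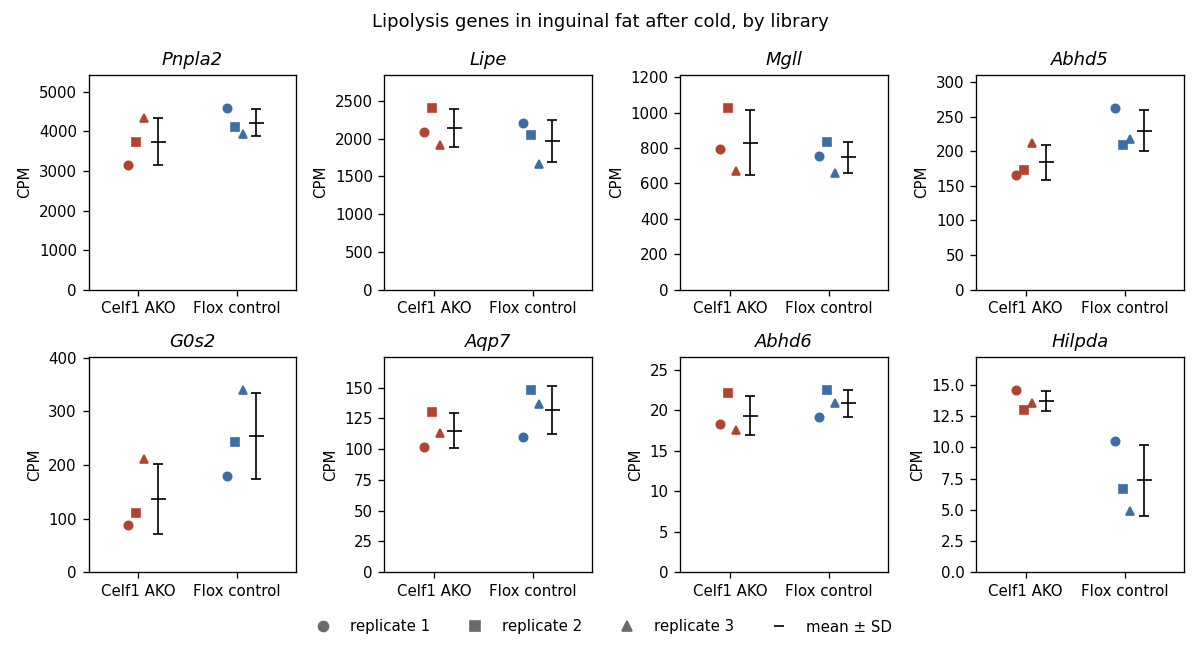
Levels of the 8 lipolysis genes in CPM (vertical axes, from 0, a separate scale for each gene) in the 3 Celf1 AKO and 3 Flox control libraries. Symbols are libraries and the bars give the mean ± SD; Hilpda is the gene whose groups do not overlap, with 13.0 CPM as the lowest Celf1 AKO value and 10.5 CPM as the highest Flox control value.

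**Figure D2:**
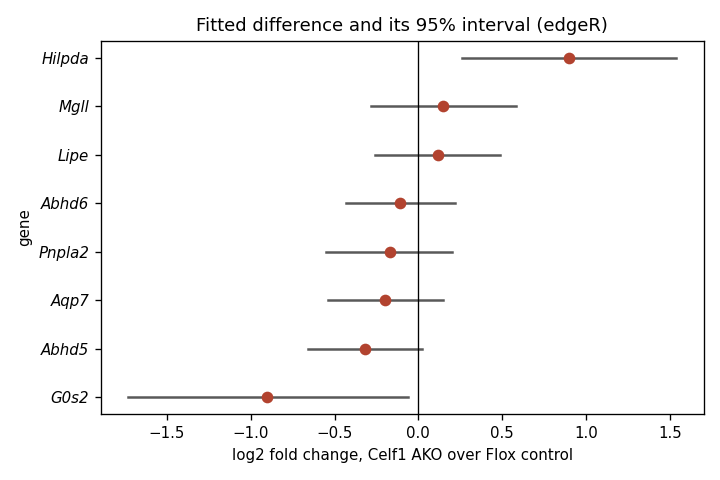
Fitted log2 fold changes of the 8 genes, Celf1 AKO over Flox control (horizontal axis), with 95% intervals from edgeR (lines). The intervals of G0s2 and Hilpda do not reach 0, those of the other 6 genes do, and none of the 8 passed after adjustment over all genes.

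The promoters of Hilpda and G0s2 are shown because these genes had the largest fold changes of the list. Both are RefSeq windows on GRCm38.p6, from 250 bases before to 50 bases after an annotated start, read 5′ to 3′ on the gene's strand. Capitals mark exact matches, on either strand, to ACGTG or GCGTG, the core bound by hypoxia-inducible factors, to TGACG, a core bound by CREB, and to AGGTCA, a core bound by nuclear receptors. Neighbouring matches may share bases.
Hilpda, chr6:29272376-29272675, plus strand: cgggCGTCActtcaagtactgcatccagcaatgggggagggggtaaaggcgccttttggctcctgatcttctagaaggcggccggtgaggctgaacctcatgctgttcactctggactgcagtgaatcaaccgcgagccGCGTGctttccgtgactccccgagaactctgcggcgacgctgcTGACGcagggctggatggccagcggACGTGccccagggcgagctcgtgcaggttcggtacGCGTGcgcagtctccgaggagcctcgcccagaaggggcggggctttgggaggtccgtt
G0s2, chr1:193273139-193273438, minus strand: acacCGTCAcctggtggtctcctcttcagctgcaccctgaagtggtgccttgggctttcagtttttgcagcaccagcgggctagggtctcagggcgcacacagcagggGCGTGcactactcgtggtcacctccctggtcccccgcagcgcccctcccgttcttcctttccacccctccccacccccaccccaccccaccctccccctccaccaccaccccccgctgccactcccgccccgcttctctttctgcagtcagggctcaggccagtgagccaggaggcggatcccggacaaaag
The Hilpda window held 3 matches to the hypoxia-inducible factor core and 2 to the CREB core, and the G0s2 window held 1 of each. RefSeq gives Hilpda another start, whose window (chr6:29272238-29272537) overlaps the one shown and held 1 of each. Since the window with more matches is the one shown, its count was not compared with the share of all windows. Such matches were not particular to Hilpda: the 2 Mgll windows held 4 and 7 matches to the hypoxia-inducible factor core, the 2 Lipe windows 3 and 0, and the Abhd5 window 1, while those of Pnpla2, Aqp7 and Abhd6 held 0. Over the 32851 windows of this length, 43.8% held at least 1 such match and 20.8% held TGACG. Neither window shown held AGGTCA, which 16.3% of windows held.

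CELF1 is known to bind GU-rich elements in 3′ untranslated regions, so the 3′ untranslated regions of the 8 genes were searched as DNA letters on the sense strand. The longest protein-coding transcript of each gene in GENCODE M21 was used. TGTTTGT, the core of such an element, was in 2 of the 8, Abhd5 and Hilpda, with 1 match each, and in 28.6% of 13922 tested genes. Both sites are shown, with the core in capitals, because they are the matches to it in the list.
Abhd5, position 1224 of a 1922-base 3′ untranslated region on chromosome 9: accaacatTGTTTGTccaggaga
Hilpda, position 421 of a 546-base 3′ untranslated region on chromosome 6: tgcacatgTGTTTGTatataatg
Among 3′ untranslated regions within 10% of the same length, the core was in 37.4% for the length of Abhd5 and in 10.3% for that of Hilpda. The GU repeat TGTGTGT was in Abhd5 and Aqp7, with 1 match each, and in 32.8% of tested genes.

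Pnpla2 (ENSMUSG00000025509; GRCm38 chromosome 7, 141455198 to 141460743, plus strand, 11 exon blocks) was the most abundant of the 8 per length in all 6 libraries. Its level was 3149.6, 3727 and 4343 CPM in Celf1 AKO and 4606, 4106 and 3946 CPM in Flox control. Celf1 AKO replicate 3 lay inside the control range and the other 2 knockout libraries lay below it. Its log2 fold change was -0.17 (SE 0.16, 95% interval -0.55 to 0.20), and edgeR gave an adjusted p of 0.679. Without Celf1 AKO replicate 3 the groups did not overlap, as for 22.6% of all tested genes in this direction, the log2 fold change was -0.30 and the adjusted p was 0.319.

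Lipe (ENSMUSG00000003123; chromosome 7, 25379527 to 25398710, minus strand, 14 exon blocks) overlapped between the genotypes. It was found at 2088, 2410.0 and 1912 CPM in Celf1 AKO and at 2203, 2049 and 1662 CPM in Flox control, with replicate 3 the lowest of each group. The fitted log2 fold change was 0.12 (SE 0.16, 95% interval -0.26 to 0.49), with an edgeR adjusted p of 0.795. On the linear scale that interval runs from 0.83 to 1.41 times the control level. An antisense gene, 4732471J01Rik, shares 918 exonic bases with Lipe and had 66 to 130 counts per library, whereas Lipe had at least 108628.

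Mgll (ENSMUSG00000033174; chromosome 6, 88724412 to 88828360, plus strand, 11 exon blocks) was at 794, 1028 and 668 CPM in Celf1 AKO and at 752, 832 and 657 CPM in Flox control. Replicate 2 was the highest and replicate 3 the lowest of each group, and the ranges overlapped. For Mgll the log2 fold change was 0.15 (SE 0.19, 95% interval -0.28 to 0.58), with an edgeR adjusted p of 0.758, and it turned to -0.03 without Celf1 AKO replicate 2. The antisense gene Gm26588 shares 167 exonic bases with Mgll and had 64 to 110 counts per library, against 42963 or more for Mgll.

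Abhd6 (ENSMUSG00000025277; chromosome 14, 8002902 to 8056763, plus strand, 10 exon blocks), the other monoacylglycerol hydrolase, was far less abundant. It was at 18.3, 22.1 and 17.6 CPM in Celf1 AKO and at 19.2, 22.5 and 20.9 CPM in Flox control. The log2 fold change was -0.11 (SE 0.14, 95% interval -0.43 to 0.22), the narrowest interval of the 8, with an edgeR adjusted p of 0.773.

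Abhd5, the coactivator (ENSMUSG00000032540; chromosome 9, 122351608 to 122381524, plus strand, 10 exon blocks), was at 166, 173 and 212 CPM in Celf1 AKO and at 263, 209 and 217 CPM in Flox control. The knockout mean was 80.1% of the control mean, and Celf1 AKO replicate 3 overlapped the lowest control. In the fit its log2 fold change was -0.32 (SE 0.15, 95% interval -0.66 to 0.02), and edgeR gave an adjusted p of 0.414. Without Celf1 AKO replicate 3 it was -0.44, with an adjusted p of 0.130 and no overlap, as for 22.6% of all tested genes in this direction. Its antisense neighbour A730085K08Rik shares 950 exonic bases with it and had 25 to 58 counts per library, against at least 9114 for Abhd5.

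G0s2 (ENSMUSG00000009633; chromosome 1, 193272161 to 193273217, minus strand, 2 exon blocks) lies within the span of Lamb3 on the other strand without sharing exonic bases. Its level was 87.3, 111 and 211 CPM in Celf1 AKO and 179, 243 and 339.8 CPM in Flox control. Celf1 AKO replicates 1 and 2 were below every control, and Celf1 AKO replicate 3 was above Flox control replicate 1. The log2 fold change was -0.90 (SE 0.36, 95% interval -1.73 to -0.06), and the knockout mean was 53.7% of the control mean. The unadjusted p was 0.0386 and the edgeR adjusted p 0.360. Without Celf1 AKO replicate 3 the log2 fold change was -1.36, with an adjusted p of 0.0557 in a fit that called 1.43% of genes higher and 1.76% lower. Without Celf1 AKO replicate 1 it was -0.62, and without Flox control replicate 3 it was -0.63. DESeq2, which called 2.12% of genes higher and 0.926% lower, did not call G0s2 (adjusted p = 0.181).

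Hilpda (ENSMUSG00000043421; chromosome 6, 29272488 to 29275446, plus strand, 3 exon blocks) was at 14.6, 13.0 and 13.6 CPM in Celf1 AKO and at 10.5, 6.69 and 4.87 CPM in Flox control. It was the 1 gene of the 8 whose groups did not overlap. Over all tested genes, 7.81% lay higher in all 3 Celf1 AKO libraries without overlap and 9.51% lower. Its fitted log2 fold change was 0.90 (SE 0.27, 95% interval 0.26 to 1.54), and the knockout mean was 187% of the control mean. The unadjusted p was 0.0120, the edgeR adjusted p 0.299 and the DESeq2 adjusted p 0.0560. Left out in turn, no library removed the separation of the groups, and the log2 fold change of Hilpda ran from 0.67 without Flox control replicate 3 to 1.25 without Flox control replicate 1. The share of all tested genes that lay higher without overlap was 11.1%, 11.9% and 19.3% without Celf1 AKO replicates 1, 2 and 3, and 14.8%, 12.0% and 9.75% without Flox control replicates 1, 2 and 3. Of all tested genes, 7.53% had a log2 fold change of at least this size in either direction, and 7.63% one of at least the size of that of G0s2.

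Hilpda is also made in cells other than adipocytes, and which cells made it here was not measured. Markers of several other cell types had higher values in Celf1 AKO. None was called by edgeR over all libraries. DESeq2 called 3 of 7 endothelial and 5 of 6 Schwann cell markers higher, beside 2.12% of all genes. The 7 endothelial markers summed to 984 to 1143 CPM in Celf1 AKO, against 560.2 to 812 CPM in Flox control, with 6 of 7 positive and 5 without overlap. The 6 Schwann cell markers summed to 431 to 597 CPM in Celf1 AKO, against 241 to 310.4 CPM in Flox control. All 6 were higher without overlap, as were 7.81% of all tested genes. In these lists every Celf1 AKO sum was above every Flox control sum, whereas the sums of the next 4 lists overlapped. The 6 neutrophil markers summed to 16.5 to 114 CPM in Celf1 AKO, against 3.41 to 16.7 CPM in Flox control, with 6 of 6 positive and 2 without overlap, Celf1 AKO replicate 3 the highest and Ngp listed at 0 CPM in 2 controls. The 6 erythrocyte markers summed to 557 to 1271 CPM in Celf1 AKO, against 351 to 588 CPM in Flox control, with 6 of 6 positive and 0 without overlap. The 6 macrophage markers summed to 328 to 982 CPM in Celf1 AKO, against 562 to 856 CPM in Flox control, with 2 of 6 positive. Macrophages take up lipid and can themselves express Hilpda. The 6 preadipocyte and fibroblast markers summed to 2127 to 3389 CPM in Celf1 AKO, against 2477 to 3112 CPM in Flox control. The 4 tested of 6 epithelial markers summed to 3.53 to 19.9 CPM in Celf1 AKO, against 1.01 to 3.93 CPM in Flox control, with 4 of 4 positive, and 2 of the 3 lymphocyte markers tested were positive. Of 5 skeletal muscle markers only Acta1 was tested, at 23.1 to 1039 CPM in Celf1 AKO, against 33.5 to 75.2 CPM in Flox control, with Celf1 AKO replicate 3 at the top. The part of these cells in the Hilpda and G0s2 values was not tested, and in bulk tissue fewer cells of a type and less RNA per cell cannot be told apart.

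Aqp7, the glycerol channel (ENSMUSG00000028427; chromosome 4, 41033074 to 41048139, minus strand, 10 exon blocks), was at 102, 130.0 and 113 CPM in Celf1 AKO and at 110.3, 148 and 137 CPM in Flox control. Replicate 1 was the lowest and replicate 2 the highest of each group. The log2 fold change was -0.20 (SE 0.15, 95% interval -0.54 to 0.15), with an edgeR adjusted p of 0.608. Aqp3, another glycerol channel, was not tested.

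Levels of different genes were compared as FPKM, the authors' values scaled for gene length and library total. In Celf1 AKO the order was Pnpla2 (1420.3 ± 268 FPKM), Lipe (570.3 ± 39.3), Mgll (205 ± 35.0), G0s2 (157 ± 81.9), Abhd5 (58.1 ± 10.2), Aqp7 (45.2 ± 4.16), Hilpda (13.9 ± 1.26) and Abhd6 (9.51 ± 0.719; SD, n = 3). In Flox control it was Pnpla2 (1607 ± 48.6 FPKM), Lipe (530.4 ± 60.2), G0s2 (295 ± 105), Mgll (188 ± 25.7), Abhd5 (72.5 ± 4.62), Aqp7 (52.7 ± 10.6), Abhd6 (10.4 ± 1.40) and Hilpda (7.40 ± 2.46; SD, n = 3). Only Mgll with G0s2 overlapped between neighbours in Celf1 AKO. In Flox control the overlapping neighbours were G0s2 with Mgll and Abhd6 with Hilpda. Pnpla2 alone made up 54.9% to 61.0% of the summed FPKM of the 8 genes in Celf1 AKO and 56.8% to 60.7% in Flox control.

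The genes also differed in how much they varied within a group. The coefficient of variation of the CPM of G0s2 was 47.9% in Celf1 AKO and 31.9% in Flox control, and that of Hilpda was 5.98% in Celf1 AKO and 39.2% in Flox control. The other 6 genes lay between 11.8% and 22.0% in Celf1 AKO and between 8.06% and 14.8% in Flox control. The medians over 8653 genes with a mean of at least 10 CPM were 12.5% in Celf1 AKO and 9.94% in Flox control. Profiles over the 6 libraries were compared by the root mean square difference of log2(CPM + 0.5), each centred on its own mean. The closest pairs were Aqp7 with Abhd6 (0.0963 log2 units), Pnpla2 with its coactivator Abhd5 (0.0989) and Lipe with Mgll (0.114). The farthest pair was G0s2 with Hilpda (1.16). These distances describe 6 shared libraries and carry no test.

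Among all other genes of at least 10 CPM, the profiles closest to G0s2 were those of Hoxa9 and Nfatc4, each at 0.12 log2 units over the 6 libraries. The closest to Hilpda were Crispld2 and Plpp1, each at 0.15, where Plpp1 encodes a lipid phosphate phosphatase. Plpp1 averaged 70.5 CPM in Celf1 AKO, against 38.7 CPM in Flox control. For the flatter profiles the closest genes were nearer, since little variation leaves little to differ. They were Bzw2 (0.029) and Tomm20 (0.032) for Pnpla2, Lsm4 (0.025) and Get4 (0.028) for Lipe, and Tkfc (0.030) and Trappc4 (0.046) for Mgll. For Abhd5 they were Trabd (0.027) and Mtor (0.038), for Aqp7 Mdp1 (0.039) and Rgl2 (0.044), and for Abhd6 Tacc1 and Rpap2 (0.037 each).

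Ratios within a library do not depend on how libraries are scaled. The ratio of G0s2 to Pnpla2, the inhibitor to its enzyme, was 0.0835, 0.0900 and 0.146 in Celf1 AKO and 0.117, 0.179 and 0.260 in Flox control. Celf1 AKO replicates 1 and 2 lay below all controls and replicate 3 lay among them. The difference was -0.77 on the log2 scale (exact two-sided permutation p = 0.200, where 3 against 3 cannot go below 0.1). The ratio of the coactivator Abhd5 to the inhibitor G0s2 was 0.524, 0.429 and 0.278 in Celf1 AKO and 0.405, 0.237 and 0.176 in Flox control. That was a difference of 0.63 (exact permutation p = 0.200), with 1 control, replicate 1, inside the knockout range.

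Lipe to Pnpla2 stood at 0.469, 0.457 and 0.311 in Celf1 AKO and at 0.338, 0.353 and 0.298 in Flox control, a log2 difference of 0.30 (exact permutation p = 0.300). Again Celf1 AKO replicates 1 and 2 lay outside the control range and replicate 3 lay inside it. Mgll to Lipe was 0.359 ± 0.0360 in Celf1 AKO and 0.355 ± 0.0322 in Flox control (mean ± SD of 3 libraries each), a log2 difference of 0.02 (exact permutation p = 0.900). None of the 4 ratios separated the genotypes.

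**Figure D3:**
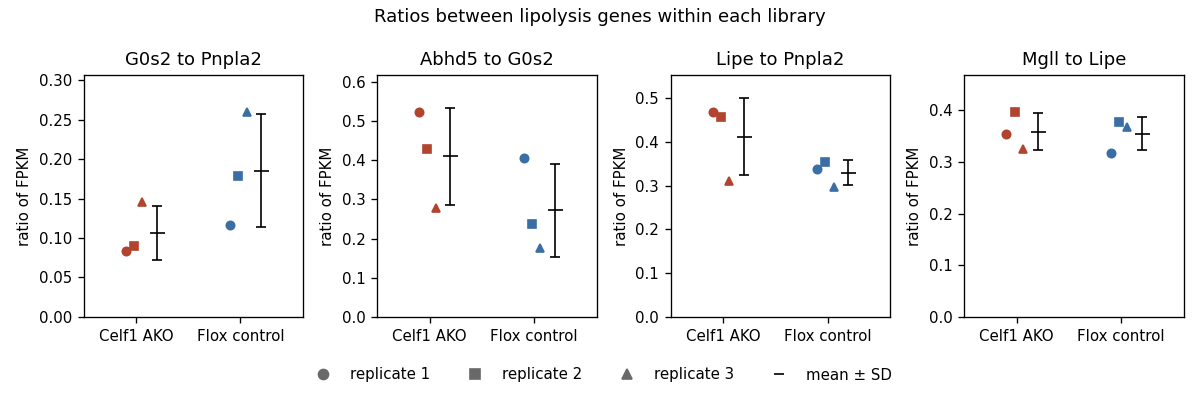
Ratios of FPKM between pairs of lipolysis genes within each library (vertical axes, from 0), for 3 Celf1 AKO and 3 Flox control libraries, with mean ± SD. In the first 3 panels from the left Celf1 AKO replicate 3 (triangle) lies within the control range, at 0.146, 0.278 and 0.311, and the Mgll to Lipe ratio averages 0.359 in Celf1 AKO and 0.355 in Flox control.

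The receptors that start or restrain lipolysis held no gene called by edgeR over all libraries, with 5 of 11 positive and 6 negative and a median log2 fold change of -0.05. Adrb3, the main β-adrenergic receptor of mouse adipocytes, was at 126, 138 and 107 CPM in Celf1 AKO and at 46.9, 119 and 135 CPM in Flox control. Its 0.30 log2 fold change (edgeR adjusted p = 0.744) was -0.04 without Flox control replicate 1, the one low library. Adrb1, a β-adrenergic receptor of lower level here, was at 2.57, 1.47 and 2.55 CPM in Celf1 AKO and at 3.94, 6.41 and 3.87 CPM in Flox control, without overlap (log2 fold change -1.11, edgeR adjusted p = 0.288, DESeq2 adjusted p = 0.0398). Ptger3, a prostaglandin E2 receptor that lowers cAMP, was at 19.9, 36.1 and 3.80 CPM in Celf1 AKO and at 6.41, 9.31 and 9.78 CPM in Flox control, with overlap. Its log2 fold change was 1.23 (edgeR adjusted p = 0.473). It was 1.72 without Celf1 AKO replicate 3, where edgeR called it (adjusted p = 0.0367), and 0.47 without Celf1 AKO replicate 2, so its size depended on these libraries. By limma-voom over all libraries it was 0.69.

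Of 17 genes of cAMP, protein kinase A and protein kinase G signalling, edgeR called 0, with 10 positive and 7 negative (median 0.06), and DESeq2 called 1 higher and 3 lower. Pde4b, a phosphodiesterase that breaks down cAMP, was at 48.8, 22.8 and 21.7 CPM in Celf1 AKO and at 9.12, 13.6 and 10.2 CPM in Flox control (95% interval of the log2 fold change 0.72 to 2.29, edgeR adjusted p = 0.238, DESeq2 adjusted p = 0.00155). Adcy6, an adenylyl cyclase, was at 121, 112 and 143 CPM in Celf1 AKO and at 161, 202 and 221 CPM in Flox control (-0.63, SE 0.16, edgeR adjusted p = 0.252, DESeq2 adjusted p = 0.0270). Neither gene overlapped between the groups. The other 2 DESeq2 calls, both lower, were Adcy3 and Prkar2b. Pde3b, the phosphodiesterase through which insulin restrains lipolysis, was at 1183, 1143 and 1689 CPM in Celf1 AKO and at 1815, 1257 and 1707 CPM in Flox control, with overlap.

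Of 10 lipid droplet proteins and their partners, edgeR called 0 over all libraries and DESeq2 called Plin5, with 3 positive and 7 negative and a median log2 fold change of -0.09. Plin1, which keeps Abhd5 away from ATGL until protein kinase A acts, was at 1465, 1482 and 1690.1 CPM in Celf1 AKO and at 1696, 1756 and 1520.5 CPM in Flox control (log2 fold change -0.10). Plin5, a perilipin of oxidative tissues that binds ATGL and Abhd5, was at 24.7, 33.4 and 55.3 CPM in Celf1 AKO and at 80.0, 83.2 and 85.7 CPM in Flox control. Its log2 fold change was -1.13 (SE 0.27), and the adjusted p from edgeR was 0.251 over all libraries and 0.0174 without Celf1 AKO replicate 3, where the change was -1.52. DESeq2 gave 0.00856 over all libraries. Cidea, a droplet protein of beige and brown fat, was at 102, 65.4 and 38.6 CPM in Celf1 AKO and at 178, 131 and 126 CPM in Flox control (-1.08, adjusted p = 0.299). Thermogenic Ucp1 showed 79.6, 4.86 and 34.0 CPM in Celf1 AKO and 461, 567 and 495 CPM in Flox control. Its log2 fold change was -3.69 (edgeR adjusted p = 0.246, DESeq2 adjusted p = 0.00938). Of 7 beige and brown markers, 6 were negative, 5 of them without overlap, beside 9.51% of all tested genes. Ppargc1a was positive (0.85, edgeR adjusted p = 0.380). Over all libraries edgeR called 0 of these markers, and DESeq2 called Ucp1, Dio2 and Cox7a1 lower. Without Celf1 AKO replicate 3, edgeR called Elovl3 lower.

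Other lipid hydrolases were negative for 9 of 11 (median -0.19). Neither edgeR nor DESeq2 called any over all libraries, and edgeR without Celf1 AKO replicate 3 called Dagla lower. Ddhd2, a lipase, was at 99.7, 105 and 84.5 CPM in Celf1 AKO and at 133, 117 and 139 CPM in Flox control (log2 fold change -0.43, edgeR adjusted p = 0.289). Abhd12, a lysophospholipid lipase, had a log2 fold change of -0.19 without overlap.

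Of the 13 tested genes that handle the released fatty acids and glycerol, 5 were positive and 8 negative (median -0.04). Over all libraries edgeR called 0 and DESeq2 called 2 lower, Gk and Agpat2. Gk, the glycerol kinase that lets an adipocyte reuse glycerol, was at 36.2, 19.0 and 86.0 CPM in Celf1 AKO and at 158, 149.9 and 212 CPM in Flox control. Its log2 fold change was -1.88 (SE 0.49), and edgeR gave an adjusted p of 0.259. Leaving out Celf1 AKO replicate 3 gave -2.65 and 0.0255, and DESeq2 over all libraries gave an adjusted p of 0.00409. Agpat2, an acyltransferase of triacylglycerol synthesis, was at 788, 915 and 1071 CPM in Celf1 AKO and at 1520.4, 1446 and 1525 CPM in Flox control (-0.69, SE 0.15, edgeR adjusted p = 0.227, and 0.0369 without Celf1 AKO replicate 3, DESeq2 adjusted p = 0.00223). Neither gene overlapped between the groups.

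Of 10 transcription factors known to act on lipolysis genes, 5 were positive and 5 negative (median 0.05). Neither edgeR nor DESeq2 called any over all libraries, and edgeR without Celf1 AKO replicate 3 called Ppara lower. Foxo1, an activator of Pnpla2 transcription that insulin restrains, was at 238, 265 and 193 CPM in Celf1 AKO and at 191, 162 and 141 CPM in Flox control (log2 fold change 0.49, edgeR adjusted p = 0.312). Irf4, which promotes lipolysis gene expression in fat, had a log2 fold change of 2.56 but overlapped, at 901, 684 and 133 CPM in Celf1 AKO and 191, 47.1 and 54.1 CPM in Flox control. Without Celf1 AKO replicate 3 it was 3.02 (edgeR adjusted p = 0.0549). Pparg, the adipocyte regulator that binds many lipolysis genes, was at 202, 238 and 206 CPM in Celf1 AKO and at 227, 239 and 207 CPM in Flox control (-0.06).

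Hilpda is named for its induction by hypoxia, so 11 targets of hypoxia-inducible factors were set beside it. Of these, 7 were positive and 4 negative, with a median log2 fold change of 0.25. Over all libraries edgeR called 0 and DESeq2 called 2 higher, Vegfa and Ndrg1, and edgeR without Celf1 AKO replicate 3 called Vegfa. Ndrg1, a stress-responsive gene, was at 99.9, 154 and 109 CPM in Celf1 AKO and at 68.1, 83.7 and 54.2 CPM in Flox control (0.82, edgeR adjusted p = 0.259, DESeq2 adjusted p = 0.0293). Pgk1, an enzyme of glycolysis, had the opposite sign, at 229, 236 and 279 CPM in Celf1 AKO and 403, 309.6 and 363 CPM in Flox control (-0.53, adjusted p = 0.267). In the list as a whole, 2 of 11 genes were higher and 1 lower without overlap, beside 7.81% and 9.51% of all tested genes.

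**Figure D4:**
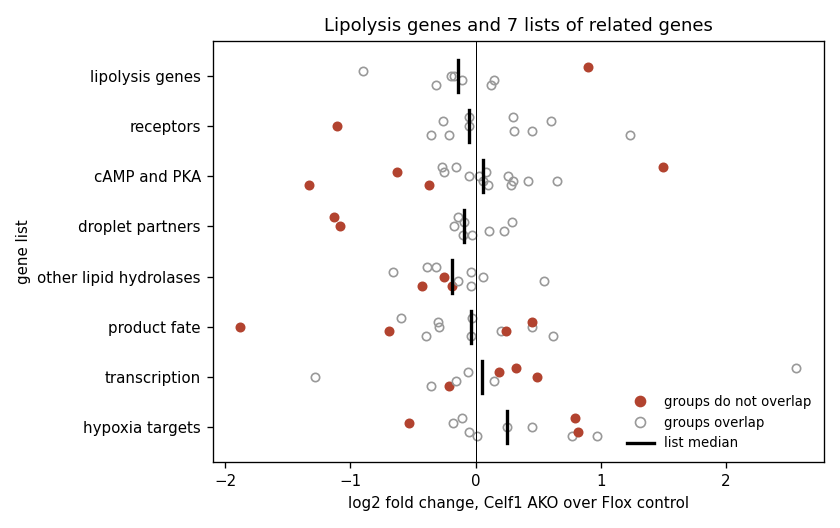
Fitted log2 fold changes, Celf1 AKO over Flox control (horizontal axis), of the 8 lipolysis genes and of the tested genes of 7 related lists; filled points are genes whose groups do not overlap and vertical bars are list medians. The medians lie between -0.19 (other lipid hydrolases) and 0.25 (hypoxia targets), and edgeR called no gene shown over all 6 libraries.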

How the data were processed

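Per the labels' protocols, RNA was extracted with Trizol and mRNA libraries were made from it. Of tools and builds, the submitters' processing notes list GRCm38, mm10, HISAT2 and RSEM 1.3.1, without roles, and the sources used here do not give the annotation or the strand setting. The authors deposited whole-number counts per Ensembl gene, and FPKM values for the same libraries. The FPKM of the 8 genes were their counts over 1 length per gene (871 to 3993 bases). GENCODE M21 (GRCm38) named 16528 of 16627 identifiers.

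Genotypes were compared in edgeR 4.0.16 (R 4.3.3) by the quasi-likelihood test, with TMM normalization, the default filter, robust estimation and genotype as the only term, adjusted by Benjamini-Hochberg over 16366 genes and called under 0.05. SE is the log2 fold change over the root of F, and 95% intervals use the test's degrees of freedom. The script was tested on simulated counts, with 50 genes set at each of the folds 1.5, 2.0 and 4.0. There edgeR called 6.00%, 42.0% and 90.0% of them, and DESeq2 called 20.0%, 66.0% and 96.0%. Of 16166 genes set without a change, edgeR called 8 and DESeq2 called 42. Alternatives used DESeq2 1.42.0 and limma 3.58.1, among others. No 2 libraries agreed within sampling noise (chi-square over degrees of freedom at least 48.0). Ratios were compared by exact permutation tests.

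The 8 genes and all lists were chosen with earlier results of these data known. Beside the 8, the text names Celf1, 6 fixed genes, the 2 genes of smallest p of each related list and the 2 closest profiles of each of the 8. Aqp3, Ngp, Acta1, Lep, Lpl, Fabp4, Cfd, Adcy3, Prkar2b, Dagla, Ppara, Vegfa, Ppargc1a, Dio2, Cox7a1, Elovl3 and the overlapping genes are named outside that rule.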

Additional observations from a re-analysis of the deposited data

How the results depend on the processing

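None of the 8 genes was called under any of the 18 alternatives run, where their lowest adjusted p-values were 0.0557 for G0s2 (edgeR without Celf1 AKO replicate 3) and 0.0560 for Hilpda (DESeq2). Other normalizations, filters, tests and units kept every sign, with log2 fold changes of -1.22 to -0.88 for G0s2 and 0.87 to 1.07 for Hilpda. Leaving out single libraries gave -1.36 to -0.62 for G0s2 and 0.67 to 1.25 for Hilpda, and turned the sign of Mgll (-0.03 to 0.28), Pparg (-0.14 to 0.02), Adrb3 (-0.04 to 0.57) and the log2 ratio of Mgll to Lipe (-0.06 to 0.08); the cause was not tested. The number of the 8 genes lying lower without overlap, 0 with all libraries, ran from 0 to 3 with 1 library left out, an alternative chosen after seeing the data. It was 3 without Celf1 AKO replicate 3, where 22.6% of all tested genes lay lower without overlap, and 2 without Flox control replicate 1, where 19.2% did. The other ratio differences kept their direction. Over all genes, edgeR called 2 higher and 0 lower. Library size only, limma-voom and limma on log2(FPKM + 1) or log2(FPKM + 0.1) called 0 higher, limma on log2(FPKM + 1) without a filter 1, limma-voom with quality weights 6 higher and 4 lower, and DESeq2 345 higher and 151 lower. With 1 library left out edgeR called 0 to 237 higher and 0 to 290 lower, the most without Celf1 AKO replicate 3. With the replicate number as a block, 9 were higher and 3 lower; same-numbered libraries deviated together at correlations of 0.0709, -0.00842 and 0.273, so the numbers were not taken as pairs. Of 522 values of the 29 genes tested under alternatives, 16 values of 10 genes other than the 8 passed where all libraries with edgeR did not. With 3 libraries per group, intervals of the 8 genes are 0.65 to 1.67 log2 units wide.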
